A study of Rattus norvegicus with 12 samples.

Results

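The genes described here encode 10 matrix proteins of the heart outside its collagen fibres: the proteoglycans Dcn, Bgn, Lum, Fmod, Ogn, Prelp and Vcan, the adhesive glycoprotein fibronectin (Fn1), and fibrillin-1 (Fbn1) and elastin (Eln) of the elastic fibre. They were found as the probe sets with a single gene symbol equal to a member, which gave 18 of the 15923 probe sets on the array. Of these, 16 were bright enough to be tested, and every one of the 10 genes had at least 1 tested probe set among the 7720 genes tested. The rule used symbols only and no measured value, but the members were chosen with earlier results of these data known. The same holds for the gene lists used below, so the shares over all genes set beside their counts are descriptive. RNA came from the ventricle of 12 rats, with 1 array per rat and 3 rats in each of 4 groups. In the 2 d IR and 7 d IR groups (ischaemia followed by reperfusion) a ligature blocked the LAD, the left anterior descending artery that feeds the front wall, for 30 min, flow was restored, and tissue was collected 2 or 7 days later. The 2 d sham and 7 d sham rats had no occlusion and were taken at the same days. The sources used here name no genotype, strain, sex or age, and whole ventricle was sampled, so that scarred, bordering and remote muscle were measured as a mixture.

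Proteoglycans are core proteins that carry long sulfated sugar chains. The small leucine-rich proteoglycans coat collagen fibrils and set their width and spacing, versican binds hyaluronan in a loose matrix, and fibronectin is laid down early in wounds as a scaffold that integrins grip. Elastic fibres are built by depositing elastin on microfibrils of fibrillin and are then crosslinked by lysyl oxidases. In the heart these proteins come largely from fibroblasts and, for elastin, also from cells of the vessel wall, and they are part of the matrix that replaces lost muscle after an infarct.

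The deposited values were MAS5 intensities, a signal per probe set in arbitrary units, and array medians ran from 637.3 to 719. Groups were compared with limma on log2(signal + 195.45) over all 12 arrays, and an adjusted p (Benjamini-Hochberg over 10527 probe sets) under 0.05 was called. The arrays of replicates 82 and 69 stood apart. The 7 d sham array of replicate 82 lay 0.60 log2 units below the mean of the 7 d sham rats over 10 fibroblast markers and 0.49 below it over the macrophage markers. The 2 d IR array of replicate 69 lay 1.67 above the 2 d sham mean over the macrophage markers, against 0.45 and 0.92 in the other 2 d IR rats. The summed signal of the 10 fibroblast markers, all tested, ran from 63740 to 75100 in 2 d sham, from 74170 to 93100 in 2 d IR, from 81240 (replicate 82) to 147100 in 7 d sham and from 187700 to 242000 in 7 d IR. That of the 6 macrophage markers on the array, of 10 listed, was 11760 to 16160, 26450 to 51340, 9427 to 18570 and 23200 to 29130 in the same order. The 7 cardiomyocyte markers on the array were bright in every group, at sums of 352200 to 395500, 264400 to 357500, 331200 to 383700 and 260200 to 282900. At 7 d the sums of the IR rats all lay below those of the sham rats. Of the 7, 1 was called lower at 2 d and 3 at 7 d, beside 0.635% and 6.57% of all genes. Their median log2 changes were -0.242 and -0.385. The fibroblast list itself holds the matrix genes Col3a1, Col1a1, Col1a2 and Postn. Their highest signals were 62738.5, 54916.1, 50944.1 and 29200.8, beside 26780.9 for Gsn, the next, and 928.2 for Tcf21. Of the 10 fibroblast markers, 5 were called higher at 7 d, beside 6.4% of all genes, and 0 at 2 d. Among markers of neighbouring tissue, the summed lung genes reached 5222 in 7 d IR replicate 44 and 760.5 to 1586 in the other 11 arrays. The 4 atrial genes summed to 20690 to 41560 in 2 d sham, 14180 to 20460 in 2 d IR, 41690 to 54880 in 7 d sham and 24970 to 49280 in 7 d IR. Their median log2 change was 1.24 between 7 d and 2 d sham, with 0 called. It was -0.674 between IR and sham at 7 d, with 1 called lower, beside 6.57% of all genes. Of these, Myl7 ran from 452.4 in 7 d IR replicate 47 to 9699.4 in 7 d sham replicate 81. The log2 ratio of the 3' to the 5' beta-actin control probe set, a sign of RNA quality, was 0.386 to 0.828 in 7 d sham and 0.114 to 0.227 in 7 d IR, without overlap. The same ratio overlapped between these groups for the GAPDH control (0.309 to 0.438 and 0.276 to 0.379) and the hexokinase control (0.756 to 1.21 and 0.705 to 1). Among other marker lists at 7 d, sums in sham and IR rats were 40540 to 50760 and 48670 to 53370 for smooth muscle, and 15870 to 19100 and 17920 to 18490 for endothelium. They were 1892 to 3512 and 2348 to 5271 for mesothelium, 1726 to 2906 and 2885 to 4628 for adipocytes, 71660 to 86510 and 53830 to 73540 for skeletal muscle, and 2242 to 2926 and 1898 to 2546 for liver. Of the adipocyte list, Cfd was the tested gene and was called higher at 7 d (log2 change 0.94, adjusted p = 0.0152), while Plin1 and Lep were too dim to test. The skeletal muscle sum rested on Acta1 and Ckm (median signals 33670 and 34680), while Tnnt3 and Myh4 were too dim to test. The liver sum rested mainly on Ttr (median 2101), while Alb and Apoa1 were too dim. Neither sum is read here as RNA of that tissue. The part of these markers and of RNA quality in the results below was not tested. In bulk tissue, more cells of a type and more RNA per cell cannot be told apart.

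Fn1 was the member raised at 2 d by its brightest probe set, joined by Fbn1 through 1 of its 2 probe sets. At 7 d, Fbn1, Eln, Prelp and Lum were raised by their brightest probe sets, joined by Ogn through 1 of its 4 probe sets. At 2 d, 1 of 10 members was called higher and 0 lower, where 1.98% of all 7720 genes were called higher and 0.635% lower. At 7 d, 4 of 10 were called higher and 0 lower, beside 6.4% of all genes called higher and 6.57% lower. The members' median log2 change was 0.237 at 2 d and 0.616 at 7 d, beside medians over all genes of 0.00717 and 0.00788. All 3 IR arrays lay above all 3 sham arrays for Vcan, Fn1 and Fbn1 at 2 d (3 of 10, beside 14.7% of all genes) and for Lum, Prelp, Fn1, Fbn1 and Eln at 7 d (5 of 10, beside 16.9%). They lay below for 1 member, Ogn, at 2 d (beside 12.8% of all genes).

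**Figure D1:**
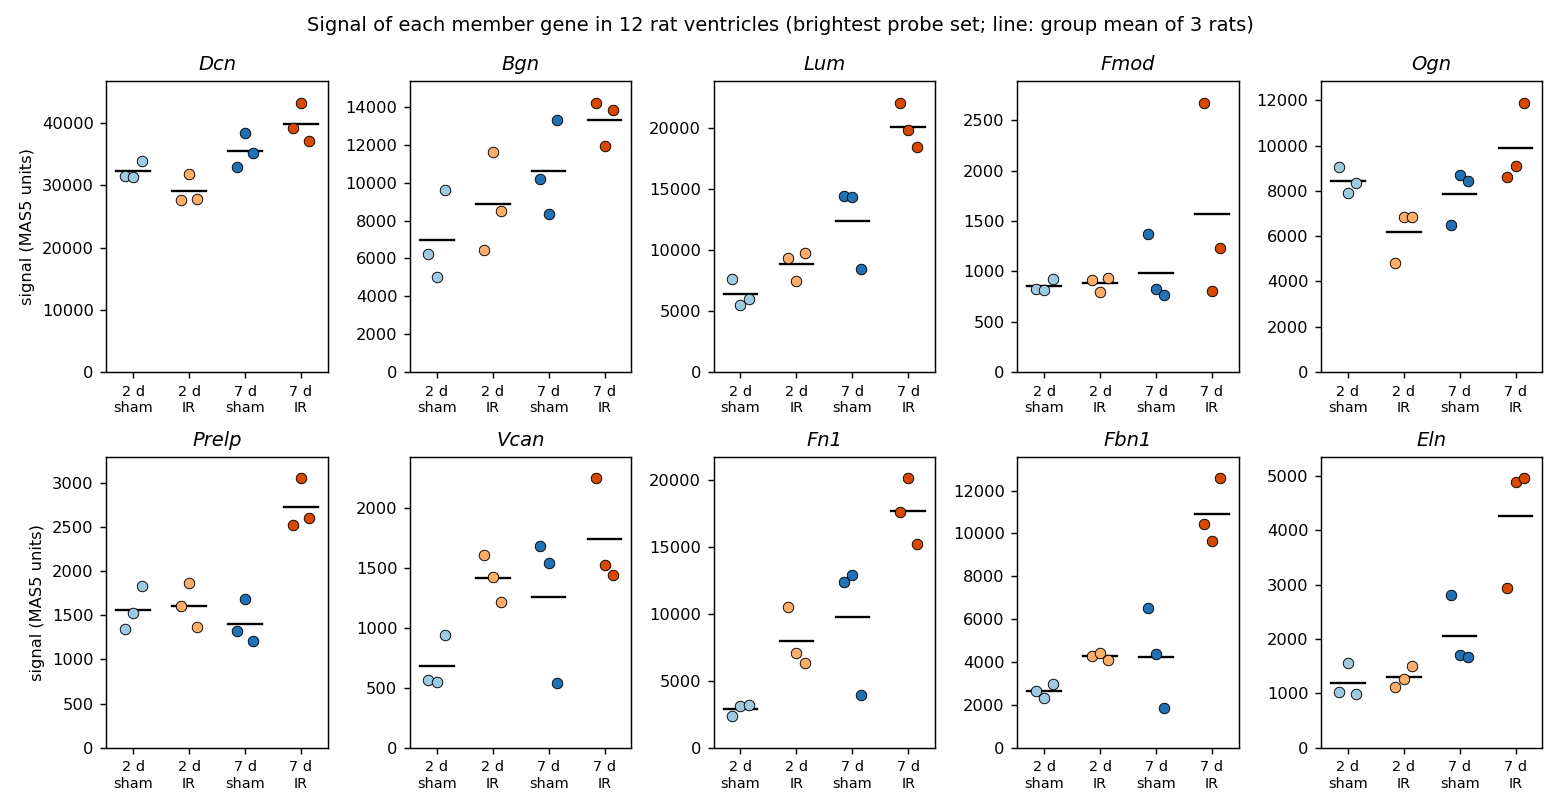
Signal of the brightest probe set of each of the 10 genes (MAS5 units, linear axis from 0, with a scale of its own in each panel) in the 12 rats by group; each point is 1 rat and each line a mean of 3. Lum, Prelp, Fbn1, Fn1 and Eln sit highest in 7 d IR, while Fn1, Fbn1, Vcan and Lum of 7 d sham each have 1 low point, which is replicate 82.

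Lum encodes lumican, a keratan sulfate proteoglycan of the small leucine-rich family that binds collagen fibrils. Its signal was 7590.6, 5502.6 and 5975.1 in 2 d sham (replicates 71, 72 and 74) and 9355.6, 7435.8 and 9770.4 in 2 d IR (replicates 69, 73 and 76). In 7 d sham (replicates 80, 81 and 82) Lum read 14401.5, 14354.1 and 8451.7, and in 7 d IR (replicates 44, 47 and 48) 22064.7, 19843.9 and 18387.5. The 7 d IR arrays were thus all above the 7 d sham arrays, with replicate 82 lowest, while at 2 d the highest sham and the lowest IR array overlapped. Lum rose 1.65-fold at 7 d, a log2 change of 0.72 (SE 0.187, adjusted p = 0.0244, limma). Its 2 d change was 0.47 on the log2 scale (adjusted p = 0.165). The 7 d call of Lum was lost when 7 d IR replicate 44 or 47 or 7 d sham replicate 82 was left out. Without replicate 82 it was 0.47 (adjusted p = 0.104).

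Prelp encodes a leucine-rich repeat protein that anchors basement membranes to the tissue around them by binding heparan sulfate and collagen. In 2 d sham it read 1339.3, 1522.9 and 1828, and in 2 d IR 1600.1, 1861.8 and 1362.6, interleaved with each other. In 7 d sham it read 1323.7, 1678.8 and 1205.4, and in 7 d IR 2523.3, 3050.5 and 2604.2, so that the 7 d IR arrays stood clear of the other 9. Prelp rose 1.84-fold at 7 d (log2 change 0.88, SE 0.154, adjusted p = 0.00725), from 1403 ± 246 to 2726 ± 284 (SD, n = 3 each). The call held in all 12 fits that left out 1 array, with log2 changes of 0.79 to 1.00. At 2 d the log2 change was 0.04 (adjusted p = 0.929).

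Dcn encodes decorin, a small proteoglycan that regulates the width of collagen fibrils and binds TGF-beta. Its signals were 31457.6, 31402.4 and 33966.1 in 2 d sham and 27585.6, 31756.2 and 27795.9 in 2 d IR. They were 32866.2, 38353.1 and 35237.5 in 7 d sham and 39178.1, 43280 and 37128 in 7 d IR. The groups of a day overlapped for Dcn, and neither change passed the test, at log2 changes of -0.15 (SE 0.0977, adjusted p = 0.391) at 2 d and 0.17 (adjusted p = 0.287) at 7 d. The 95% interval of the 7 d change of Dcn ran from -0.04 to 0.38. Both values moved with the scaling. With quantile normalization the 2 d change of Dcn was -0.015 (adjusted p = 0.942), and the 7 d change was called (0.35, adjusted p = 0.0168).

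Ogn encodes osteoglycin (mimecan), a small leucine-rich proteoglycan of collagen-rich tissue, and was read by 4 tested probe sets. The brightest, 1376749_at, read 9074.4, 7928.5 and 8354 in 2 d sham and 4805.7, 6860.7 and 6856.9 in 2 d IR, so that all the 2 d IR arrays were below the sham arrays and replicate 69 was the lowest. It read 6487.7, 8703.4 and 8452.6 in 7 d sham and 8618.9, 9120.3 and 11904.9 in 7 d IR, which overlapped. The 2 d change of Ogn was -0.46 on the log2 scale (SE 0.163, adjusted p = 0.125) and the 7 d change 0.32 (adjusted p = 0.222), and neither passed. The other probe sets of Ogn differed in part. At 2 d, 1383263_at gave -0.49 and 1385248_a_at -0.26, while the dimmest, 1390450_a_at, gave 0.02. At 7 d, 1383263_at was called (0.59, SE 0.183, adjusted p = 0.0481) although its groups overlapped, and its call remained in only 2 of 12 fits that left out 1 array, those without 7 d IR replicate 44 or 2 d IR replicate 69. The other 7 d values were 0.52 for 1385248_a_at (adjusted p = 0.0913) and 0.21 for 1390450_a_at (adjusted p = 0.597).

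Bgn encodes biglycan, the close relative of decorin, which also signals through Toll-like receptors when released from the matrix. Its signal was 6230.6, 5024.8 and 9624.5 in 2 d sham and 6467.3, 11652.6 and 8499.2 in 2 d IR. It was 10205.1, 8327.8 and 13342.4 in 7 d sham and 14237.1, 11926.9 and 13843.9 in 7 d IR. The groups of each day overlapped, with sham replicates 74 and 82 highest of their groups, and the log2 changes were 0.35 (SE 0.234, adjusted p = 0.413) at 2 d and 0.34 (adjusted p = 0.367) at 7 d. Single arrays moved both values of Bgn. Dropping IR replicate 73 or 69 gave a 2 d change of 0.14 or 0.56, and dropping sham replicate 72 or 74 gave 0.15 or 0.61. Dropping sham replicate 81 or 82 gave a 7 d change of 0.19 or 0.52.

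Fmod encodes fibromodulin, which shares its collagen-binding site with lumican. It read 824.4, 817.2 and 922.8 in 2 d sham, 914.8, 799.4 and 937.3 in 2 d IR, 1368.7, 829.2 and 764.3 in 7 d sham and 2677.3, 802.7 and 1230.9 in 7 d IR. Replicate 44 alone was high, and the other 7 d IR arrays lay within the range of the sham arrays. The 7 d log2 change of Fmod was 0.47 (SE 0.286, adjusted p = 0.306) and fell to 0.05 without replicate 44, the array in which the lung genes were highest. At 2 d it was 0.04, with a sign that turned under median centring and quantile normalization.

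Vcan encodes versican, the large chondroitin sulfate proteoglycan that forms aggregates with hyaluronan in provisional matrix. Of its 5 probe sets, 1388265_x_at and 1371233_at exceeded the brightness minimum in 0 arrays and were not tested. The brightest, 1388142_at, read 565.7, 548.9 and 938.3 in 2 d sham and 1607.3, 1428.1 and 1214.3 in 2 d IR, without overlap. In 7 d sham it read 1681.5, 1544.6 and 540.1, and in 7 d IR 2250.6, 1523.6 and 1444.6, so that the groups overlapped and replicate 82 stood at the level of the 2 d sham rats. The 2 d changes of the 3 tested Vcan probe sets were 0.89, 1.28 and 0.94 on the log2 scale (adjusted p = 0.101, 0.11 and 0.0754), all with IR arrays above sham arrays, and none passed. Without 7 d sham replicate 82, 1388142_at passed at 2 d with the same change (adjusted p = 0.0207). At 7 d they were 0.51, 0.71 and 0.57 (adjusted p = 0.277, 0.302 and 0.189). Without replicate 82 the 7 d values of Vcan fell to 0.07, 0.28 and 0.27, and without 7 d IR replicate 44 to 0.33, 0.19 and 0.30. The probe set 1388054_a_at ranged from 904.8 to 3759.7 within 7 d IR, with replicate 44 highest.

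Promoter windows were sought for every member in the RefSeq table of assembly GRCr8, which held Vcan, Fbn1, Lum, Fmod and Ogn, 5 of 10. For Vcan and Fmod the bases before the start lay outside the gene, and these 250 bases are shown, for Vcan as a member whose tested probe sets all separated the 2 d groups and for Fmod as the neighbour of Prelp that was not called. Capitals mark matches, on either strand, to CAGAC (the core of the SMAD box, the element bound downstream of TGF-beta receptors) and to the GC box GGGCGG. The AP-1 motif TGANTCA, the TATA box TATAAA and the TEAD motif GGAATG were also searched and gave no match in either.
Vcan (GRCr8, chr2:22595956-22596205, minus strand): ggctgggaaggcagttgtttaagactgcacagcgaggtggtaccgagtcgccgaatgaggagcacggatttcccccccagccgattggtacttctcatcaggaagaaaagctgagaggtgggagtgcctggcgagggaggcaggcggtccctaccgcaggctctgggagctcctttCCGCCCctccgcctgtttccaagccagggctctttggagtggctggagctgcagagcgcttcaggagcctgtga
Fmod (GRCr8, chr13:48045317-48045566, plus strand): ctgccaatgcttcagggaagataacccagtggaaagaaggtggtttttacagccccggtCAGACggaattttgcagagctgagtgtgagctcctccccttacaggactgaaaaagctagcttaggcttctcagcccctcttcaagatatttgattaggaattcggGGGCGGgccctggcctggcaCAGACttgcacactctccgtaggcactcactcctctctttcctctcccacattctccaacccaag
The Vcan window held 1 GC box and no CAGAC, and the Fmod window held 2 CAGAC and 1 GC box, none overlapping. Of 33469 RefSeq windows of this length, 42.9% held CAGAC, 30.5% the GC box, 6.34% the AP-1 motif, 12.9% the TATA box and 12.1% the TEAD motif. These matches describe letters only.

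Fn1 encodes fibronectin, whose dimers are stretched into fibrils by integrins and on which collagen is then laid. Its signal was 2354.2, 3114.6 and 3178.9 in 2 d sham and 10545.4, 7085.2 and 6354.2 in 2 d IR. All 2 d IR arrays were far above all 2 d sham arrays, with replicate 69 the highest. Fn1 rose 2.62-fold at 2 d (log2 change 1.39, SE 0.332, adjusted p = 0.0433), from 2883 ± 459 to 7995 ± 2240 (SD, n = 3 each). Its call remained in 5 of 12 fits that left out 1 array, with log2 changes of 1.18 to 1.53 and adjusted p-values up to 0.231. It was lost without 2 d sham replicate 71, 72 or 74, 2 d IR replicate 69 or 76, or 7 d IR replicate 47 or 48, the last of which enter through the shared estimate of the spread. Without replicate 69, 71 or 72, 0.0259% of all genes were called at 2 d in either direction, beside 2.62% with all arrays. With 2 d IR replicate 69 and 7 d sham replicate 82 both left out, Fn1 was called at 2 d (1.18, adjusted p = 0.00464), beside 0.699% of all genes. In 7 d sham Fn1 read 12362.2, 12899.1 and 3940.4, and in 7 d IR 17613.6, 20128.1 and 15213.6. The 7 d groups did not overlap either, but the sham rats differed among themselves, with replicate 82 near the 2 d sham level. The 7 d change of 1.01 (SE 0.332, adjusted p = 0.0612) missed the threshold, was 0.47 without replicate 82, and was called without 7 d sham replicate 80 or 81. It was also called with quantile normalization (1.10, adjusted p = 0.0473).

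Fbn1 encodes fibrillin-1, the backbone of microfibrils, which also hold latent TGF-beta complexes in the matrix. Its brighter probe set, 1387351_at, read 2652.6, 2320.6 and 2957.6 in 2 d sham and 4270.5, 4410.4 and 4112.1 in 2 d IR. It read 6536.8, 4367.9 and 1853.1 in 7 d sham and 10431.4, 9659.1 and 12570.2 in 7 d IR. IR arrays were above sham arrays at both days, and the 7 d sham rats were widely spread, with replicate 82 lowest. Fbn1 rose 2.77-fold at 7 d by this probe set (log2 change 1.47, SE 0.291, adjusted p = 0.00946), and the call held in all 12 fits that left out 1 array, with log2 changes of 0.99 (without replicate 82) to 1.85. At 2 d it gave 0.66 (SE 0.291, adjusted p = 0.208). The dimmer probe set, 1368829_at, read 2292.1, 1543.8 and 1840.8 in 2 d sham, 6010.3, 3621.9 and 3783.9 in 2 d IR, 5229.3, 4983.4 and 2024.6 in 7 d sham and 8498, 7981.3 and 9251.3 in 7 d IR. By it Fbn1 was called higher at both days, at 1.14 (SE 0.279, adjusted p = 0.0453) at 2 d and 1.14 (adjusted p = 0.0196) at 7 d. The probe sets of Fbn1 therefore differ at 2 d, where 1 is called and the other is not. The 2 d call of 1368829_at remained in 4 of 12 fits that left out 1 array and was lost without any 2 d sham or 7 d IR array or without 2 d IR replicate 69 or 76. Its 7 d call was lost without any 7 d IR array or without 7 d sham replicate 82. Without replicate 82 the brighter probe set was called at 2 d (adjusted p = 0.0281).

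Eln encodes tropoelastin, the soluble precursor that is crosslinked into elastin. It read 1030.7, 1560.9 and 989.7 in 2 d sham and 1123.3, 1271.4 and 1502.2 in 2 d IR, interleaved. It read 2813.4, 1702.7 and 1664.2 in 7 d sham and 2940.8, 4883.3 and 4957.6 in 7 d IR, where the lowest IR array lay just above the highest sham array. Eln rose 1.98-fold at 7 d (log2 change 0.98, SE 0.227, adjusted p = 0.0157), from 2060 ± 653 to 4261 ± 1140 (SD, n = 3 each). The call of Eln was lost without 7 d IR replicate 47 or 48 or 7 d sham replicate 82, and without the last it was 0.86 (adjusted p = 0.0787). At 2 d it was 0.12 (adjusted p = 0.815). Among 9 smooth muscle and pericyte markers, 2 were called higher at 7 d and 0 lower, beside 6.4% and 6.57% of all genes. The list median was 0.233. Acta2 (1.88-fold, adjusted p = 0.027) and Rgs5 (1.69-fold, adjusted p = 0.0117) were called, and the others, Myh11 and Cnn1 among them, were not. The part of vessel-wall cells in the change of Eln was not tested. The count of 4 members called at 7 d was 2 (Prelp and Fbn1) when either 7 d IR replicate 47 or 7 d sham replicate 82 was dropped. Calls over all genes fell as well. In either direction they were 13% with all arrays, 5.31% without replicate 47 and 1.85% without replicate 82.

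**Figure D2:**
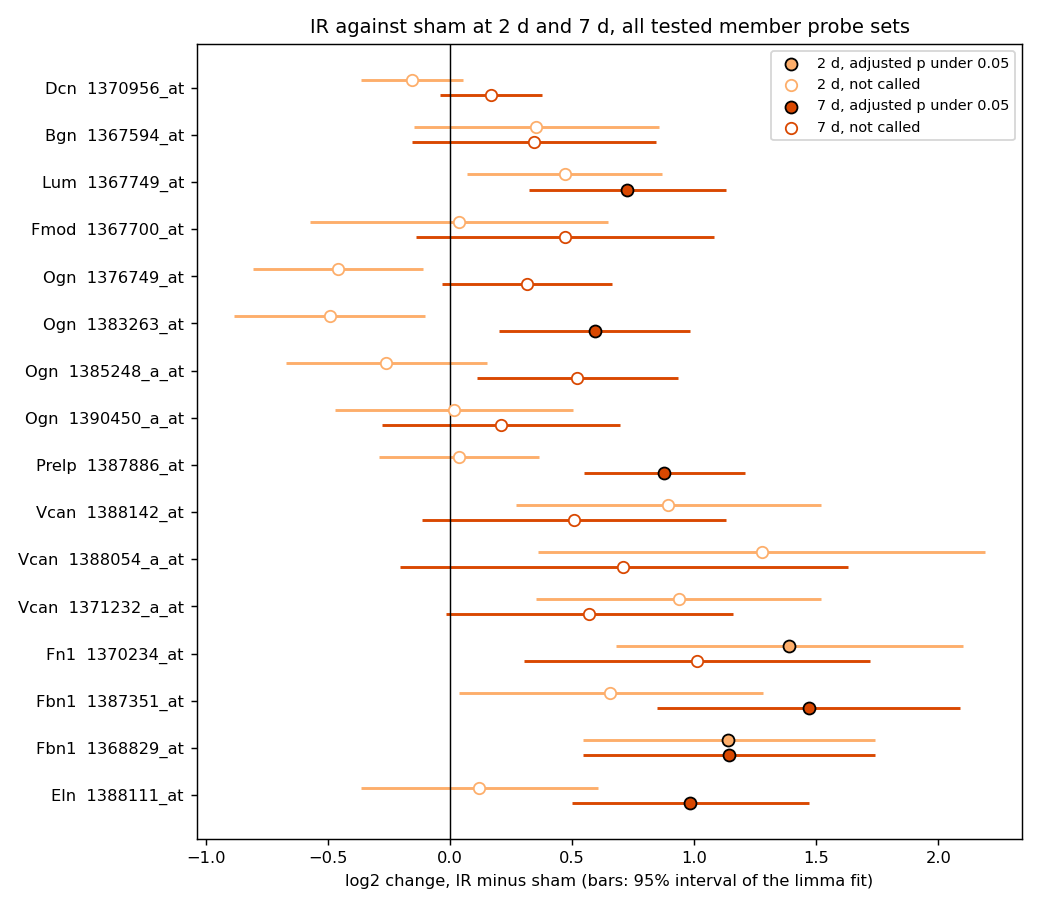
Log2 change of IR against sham at 2 d and 7 d for the 16 tested probe sets of the 10 genes, with the 95% interval of the limma fit; filled points passed the adjusted p of 0.05. Fn1 and 1 Fbn1 probe set are filled at 2 d, and Lum, Prelp, Eln, both Fbn1 probe sets and 1 of 4 Ogn probe sets at 7 d.

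Whether the IR effect differed between the days was tested directly as the 7 d effect minus the 2 d effect. By limma, 0 of 10 members passed, beside 0.013% of all genes (1 of 7720), while 4 of 10 had an unadjusted p under 0.05, beside 7.46% of all genes. Those were Prelp (difference 0.84, adjusted p = 0.369), Eln (0.86, adjusted p = 0.574), Ogn (0.77, SE 0.23, adjusted p = 0.507) and Dcn (0.32, SE 0.138, adjusted p = 0.642). For Dcn and Ogn, each 2 d IR array lay below the mean of its sham rats and each 7 d IR array above it. The share of all genes with this pattern was not counted. A call at 1 day and none at the other is therefore not shown to be a difference between days for any member.

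Between the IR groups, 6 of 10 members were called higher at 7 d than at 2 d and 0 lower, beside 2.62% of all genes called higher and 1.14% lower. Eln rose 2.92-fold (log2 1.55, SE 0.227, adjusted p = 0.00179), Fbn1 2.47-fold (adjusted p = 0.0224) and Lum 2.25-fold (adjusted p = 0.00264). Prelp rose 1.63-fold (adjusted p = 0.0199), Ogn 1.59-fold (adjusted p = 0.0361) and Dcn 1.37-fold (adjusted p = 0.018). These are the brightest probe sets. The dimmer Fbn1 probe set, 1368829_at, gave 0.94 on the log2 scale and was not called (adjusted p = 0.0822). Of the other Ogn probe sets, 1383263_at and 1385248_a_at were called (0.89 and 0.78) and 1390450_a_at was not (0.52, adjusted p = 0.271). Fn1 and Bgn gave 1.15 (adjusted p = 0.0764) and 0.61 (adjusted p = 0.194) on the log2 scale with non-overlapping groups, which made 8 of 10 members with every 7 d IR array above every 2 d IR array, beside 10.5% of all genes. Vcan gave 0.25 (adjusted p = 0.749) and Fmod 0.57 (adjusted p = 0.344), with overlap, and without 7 d IR replicate 44 these were 0.07 and 0.15. Vcan was 0.15 without 2 d IR replicate 76, and Fmod 0.91 without 7 d IR replicate 47. Lum and Eln were called in all 12 fits that left out 1 array, and the call of Prelp was lost without 7 d IR replicate 47 or 2 d IR replicate 76, that of Dcn without these or 7 d IR replicate 44, and that of Fbn1 without any 7 d IR array or 2 d IR replicate 73 or 76. The call of Ogn was lost without 7 d IR replicate 47 or 48, any 2 d IR array or 2 d sham replicate 74, and Fn1 was called without 7 d sham replicate 82. The count of 6 was 2 when either 7 d IR replicate 47 or 2 d IR replicate 76 was dropped. Over all genes, 2.24% and 2.12% were then called in either direction, beside 3.76% with all arrays.

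Sham rats of the 2 days were compared next, since each IR effect is read against them. By limma, 0 of 10 members were called between 7 d and 2 d sham (beside 0.0777% of all genes in either direction), while 5 of 10 had an unadjusted p under 0.05, beside 9.69% of all genes. All 7 d sham arrays lay above all 2 d sham arrays for Lum, Fn1 and Eln (3 of 10, beside 7.45% of all genes), with log2 differences of 0.92 (adjusted p = 0.112), 1.53 (adjusted p = 0.137) and 0.69 (adjusted p = 0.329). Without 7 d sham replicate 82, 4 members were called higher in 7 d sham, beside 0.816% of all genes called in either direction. These were Fn1 (2.07, adjusted p = 0.000147), Lum (1.17, adjusted p = 0.0023), Vcan (1.07, adjusted p = 0.0344) and Fbn1 (0.97, adjusted p = 0.018). Replicate 82 was the lowest 7 d sham array for each of these 4 genes, so leaving it out raised their 7 d sham means. No member was called between sham groups in any other fit that left out 1 array. IR groups were also set against the sham rats of the other day. Against 7 d sham, 0 members were called in 2 d IR (beside 0.492% of all genes called higher), and Fn1 gave -0.14 (adjusted p = 0.878). Against 2 d sham, 8 members were called higher in 7 d IR, all but Fmod and Ogn, beside 13.2% of all genes called higher, and Fn1 was 5.81-fold higher (adjusted p = 0.00024).

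Within groups, members followed the arrays that stood apart to different extents. In 7 d sham replicate 82, Fn1 lay 1.09, Fbn1 0.957, Vcan 0.865 and Lum 0.502 log2 units below the 7 d sham mean, beside the fibroblast marker mean of 0.601 below, while Bgn lay 0.349 and Ogn 0.11 above it. In 2 d IR replicate 69, with the highest macrophage markers, Fn1 lay 1.81 above the 2 d sham mean and Ogn 0.788 below it. In 7 d IR replicate 44, with the highest lung genes, Fmod lay 1.32 above the 7 d sham mean.

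**Figure D3:**
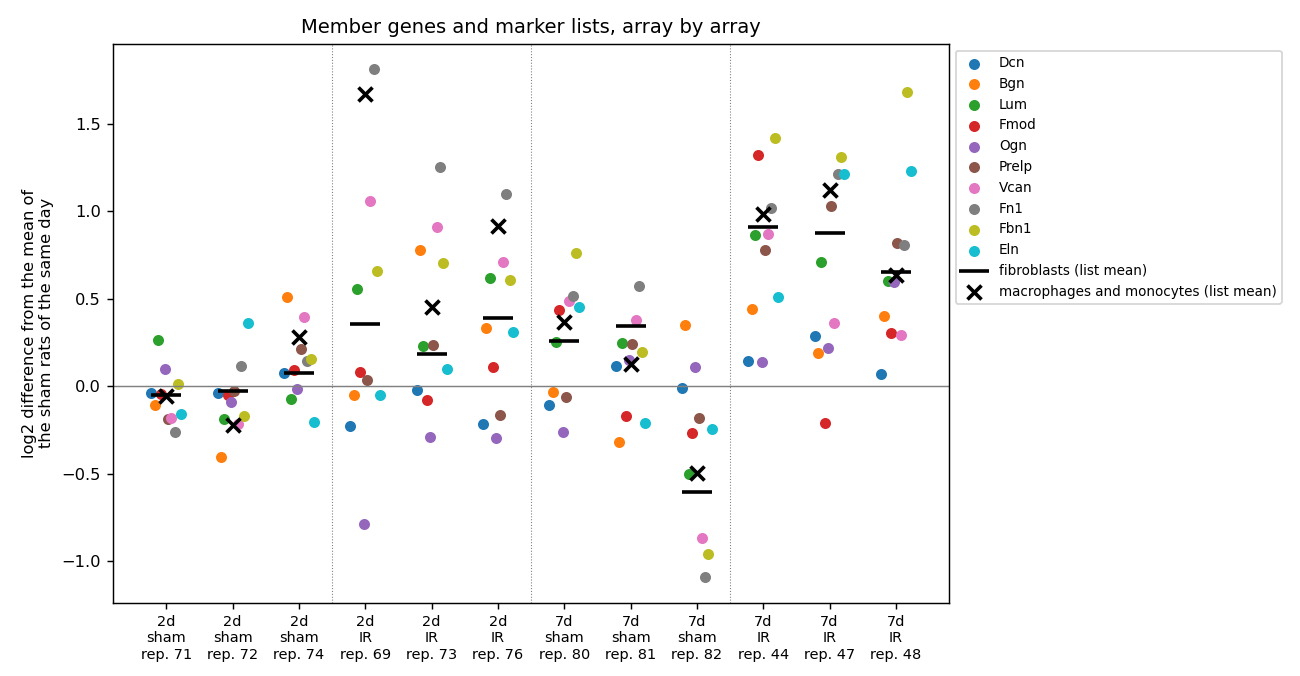
Log2 difference of each of the 10 genes from the mean of the sham rats of the same day (vertical axis) in each of the 12 arrays (horizontal axis); dashes and crosses are the means of the fibroblast and macrophage marker lists. Replicate 82 of 7 d sham is low for Fn1, Fbn1, Vcan and Lum and for both marker lists, and replicate 69 of 2 d IR is high for Fn1 and the macrophage markers.

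Of 16 tested genes for elastin, microfibril proteins, latent TGF-beta binding proteins and lysyl oxidases, 10 rose at 7 d and 0 fell, beside 6.4% of all genes called higher and 6.57% lower. The list median log2 change was 1.06, and the 10 include Fbn1 and Eln. Loxl1, a lysyl oxidase that crosslinks elastin, rose 3.84-fold (adjusted p = 0.000919), and Lox 3.04-fold (adjusted p = 0.0107). A further Lox probe set, 1368172_a_at, gave 1.01 on the log2 scale and did not pass (adjusted p = 0.0886). Ltbp2, which binds fibrillin microfibrils, rose 3.48-fold (adjusted p = 0.0188), and the microfibril protein Mfap5 2.70-fold (adjusted p = 0.00669). Mfap2 at 1.14 (adjusted p = 0.0775) and Emilin1 at 0.86 (adjusted p = 0.101) were the uncalled genes with the largest log2 changes. At 2 d, 0 of the 16 were called, 5 had an unadjusted p under 0.05, and the list median was 0.195. Without 7 d sham replicate 82 the 2 d count was 2 and the 7 d count 6, and without 7 d sham replicate 80 the 2 d count was 1. Between IR groups, 11 of the 16 were higher at 7 d than at 2 d, beside 2.62% of all genes. That count was 6, 5, 6 and 6 without 2 d IR replicate 73, 2 d IR replicate 76, 7 d IR replicate 44 and 7 d IR replicate 47. The fibroblast marker sum was highest in 7 d IR too, and 1 gene, Mfap4, is on both lists.

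**Figure D4:**
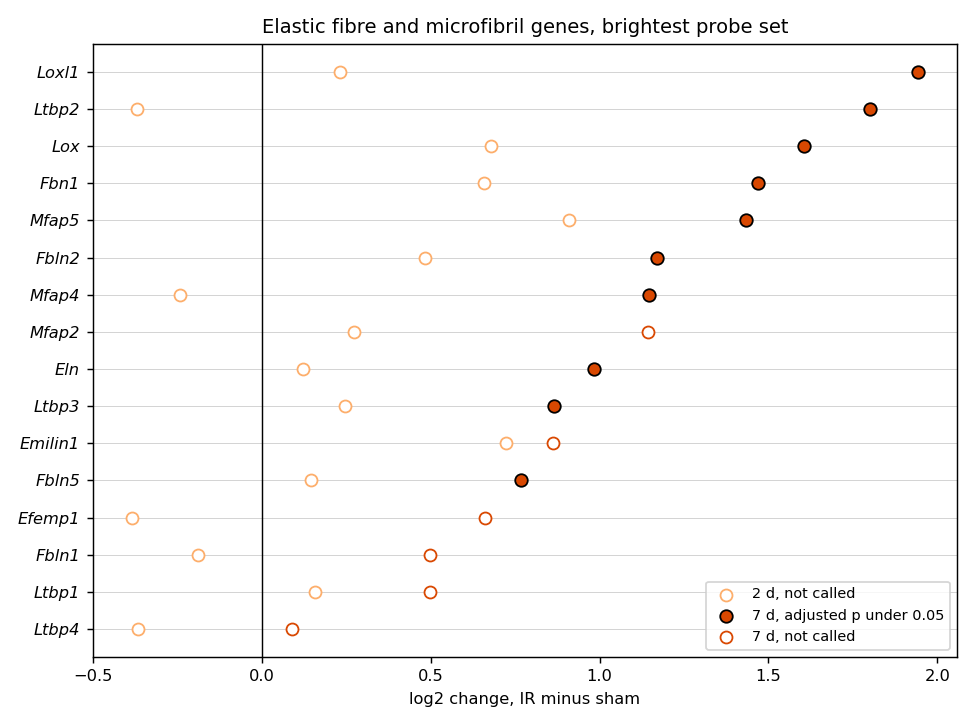
Log2 change of IR against sham at 2 d and 7 d for the 16 tested genes of the elastic fibre list (brightest probe set of each, ordered by the 7 d change); filled points passed the adjusted p of 0.05. At 7 d, 10 genes are filled, from Fbln5 to Loxl1, and at 2 d none is.

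Of 8 tested small leucine-rich proteoglycans, Lum and Prelp rose at 7 d, 2 of 8 beside 6.4% of all genes called higher (list median 0.407), and at 2 d 0 were called, 2 had an unadjusted p under 0.05 and the median was -0.0584. Among the 2 that are not members, Aspn (asporin) gave 0.78 at 7 d (adjusted p = 0.0929) and Omd 0.02. Of 13 heparan sulfate and other proteoglycans, Sdc1 (syndecan-1, a cell-surface co-receptor) rose 2.50-fold at 2 d (adjusted p = 0.0128) and 2.12-fold at 7 d (adjusted p = 0.00763). In all, 1 of the 13 was called higher at 2 d, beside 1.98% of all genes, and 4 higher and 1 lower at 7 d, beside 6.4% and 6.57%, with medians of 0.22 and 0.325. Gpc6, Col18a1 and Sdc2 also rose at 7 d, with log2 changes of 0.74, 0.72 and 0.68 (adjusted p = 0.0172, 0.047 and 0.0117). A second probe set of Col18a1, 1388459_at, gave 0.75 and did not pass (adjusted p = 0.0761). Sdc3, named after its value was seen as the 1 that fell, decreased by 0.67 (adjusted p = 0.0366), while its probe set 1372180_at gave 0.21 (adjusted p = 0.527). The 5 calls at 7 d were 2 when 7 d sham replicate 82 was dropped, and 3 when 7 d IR replicate 44 or 47 or 7 d sham replicate 81 was. The Sdc1 call at 2 d was lost without 2 d IR replicate 69 or 2 d sham replicate 71 or 72, and a second gene of the list was called without 7 d sham replicate 82.

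Of 14 tested genes for glycosaminoglycan chain synthesis, 4 rose at 7 d and 0 fell (median 0.346), beside 6.4% of all genes called higher and 6.57% lower, and at 2 d 0 were called, with 3 at an unadjusted p under 0.05 and a median of 0.219. Chpf, which extends chondroitin chains, rose 2.14-fold (adjusted p = 0.0102), and Ext1, which extends heparan sulfate, 1.72-fold (adjusted p = 0.00726). Papss2, which makes the sulfate donor, rose 1.43-fold and Ext2 1.38-fold. This count was 1 when 7 d sham replicate 82 was dropped and 2 when 7 d IR replicate 44 or 47 was. Of 8 tested hyalectan and hyaluronan genes, Cd44, the hyaluronan receptor, rose 1.80-fold at 7 d (adjusted p = 0.0222), a call lost without 7 d IR replicate 44 or 47 or 7 d sham replicate 82. This is 1 of 8, beside 6.4% of all genes called higher. At 2 d 0 of the 8 were called and 3 had an unadjusted p under 0.05, and the medians were 0.369 at 2 d and 0.11 at 7 d. The 2 d count was 2 with 7 d sham replicate 82 left out. The second Cd44 probe set, 1368921_a_at, passed instead at 2 d (1.16, adjusted p = 0.0235) and not at 7 d (0.56, adjusted p = 0.121).

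Of 10 tested genes for fibronectin, its receptors, assembly and crosslinking, 2 rose at 2 d, Fn1 and Plau (urokinase, 2.07-fold, adjusted p = 0.0308), beside 1.98% of all genes called higher, with a median of 0.242. A second Plau probe set, 1398287_at, gave 0.40 (adjusted p = 0.295). Plaur, the urokinase receptor, gave 1.33 (adjusted p = 0.0958). At 7 d, 0 of the 10 were called, 4 had an unadjusted p under 0.05 and the median was 0.31. The 2 d count was 0 when 2 d IR replicate 69 or any 2 d sham array was left out, 1 for 2 d IR replicate 76 or 7 d IR replicate 47 or 48, and 4 for 7 d sham replicate 82. The 7 d count became 3 for 7 d sham replicate 80, 2 for 2 d IR replicate 69, and 1 for 2 d IR replicate 73 or 7 d sham replicate 81. Of 11 tested enzymes that cleave these proteins and their inhibitors, 3 rose at 2 d and 6 at 7 d, and 0 fell, with medians of 0.538 and 0.739. Over all genes, 1.98% were called higher at 2 d and 6.4% at 7 d. At 2 d these were the macrophage elastase Mmp12 (3.69-fold, adjusted p = 0.042), the elastin-cleaving cathepsin Ctss (2.43-fold, adjusted p = 0.0383) and the membrane-bound protease Mmp14 (2.37-fold, adjusted p = 0.0473). At 7 d they were led by Ctsk (2.68-fold), Mmp14 (2.63-fold), Ctss (2.53-fold) and Mmp2 (2.35-fold). A second Mmp2 probe set, 1369825_at, gave -0.09 at 7 d (adjusted p = 0.831). The 2 d count of cleaving enzymes was 0 without 2 d IR replicate 69 or 76 or 2 d sham replicate 71 or 72, 1 without 2 d sham replicate 74 and 5 without 7 d sham replicate 82. Their 7 d count was 3 without 7 d IR replicate 44 or 7 d sham replicate 82. The macrophage marker sum was higher in every IR array than in the sham arrays of its day.

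As a description of likeness, each member was set against every other tested gene by the root mean square difference of their log2 signals over the 12 arrays, after centring each gene on its own mean. The arrays are shared by all genes, and no test was made. Dcn lay nearest to Ets1 (0.1) and Mgp (0.101), and Ogn to Serpine2 (0.143) and Htra3 (0.181). Lum lay nearest to Vcam1 (0.19) and Nr2f2 (0.205), Prelp to Ttyh3 (0.163) and Sh3d19 (0.17), and Vcan to Enpp3 (0.191) and Plod2 (0.207). The collagen gene Col5a2 (0.227) and Mfap5 (0.237) lay nearest to Fbn1, and Mmp14 (0.308) and the collagen gene Col1a2 (0.321) to Fn1. Eln lay nearest to Col6a1 (0.263) and Ccdc80 (0.275), Bgn to Afap1l2 (0.244) and Hoxd8 (0.271), and Fmod to Cald1 (0.215) and Erf (0.233). For scale, a member's own root mean square deviation ran from 0.187 for Dcn to 1 for Fn1. Among the members, Dcn and Ogn had the smallest distance (0.219), and Fn1 lay 0.469 from its nearest member, Fbn1. The measure is not scaled to a gene's own variation, so genes that vary little come out close. The 0.219 exceeded the 0.187 of Dcn itself, while the 0.469 was below the 1 of Fn1. These distances therefore do not rank likeness of pattern.

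Several members are neighbours in the protein-coding gene order of assembly GRCr8. Dcn lies beside Lum, and Prelp beside Fmod, while Ogn is followed by Omd and Aspn and Vcan is preceded by Hapln1. Neighbours had different values at 7 d. Lum rose by 0.72 on the log2 scale while the change of Dcn was 0.17 and not called. Prelp rose by 0.88 while that of Fmod was 0.47 and not called. The differences between neighbours were not tested.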

How the data were processed

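RNA from the ventricles of 12 rats was read on oligonucleotide arrays, 3 rats per group; groups were taken from sample titles, since the written design lists 7 d sham 2 times and 2 d sham not at all. The deposited intensity per probe set is a linear MAS5 signal, per the submitters' processing notes, and the trimmed mean (2% left out at each end) of 1500.4 to 1500.5 shows scaling per array. Of 15923 probe sets, 57 controls were dropped, and 10527 that exceeded the 40th percentile of the array in 3 or more arrays were tested. Signals were taken as log2(signal + 195.45), the median over arrays of the 20th percentile, so that fold changes of dim genes are understated. A group-means model over 12 arrays was fitted with limma 3.58.1 (R 4.3.3, eBayes with an intensity trend), two-sided, and checked on simulated data. Symbols came from the platform annotation (12789 probe sets with 1 symbol, 312 with several, 2822 unnamed here; 12754 found in RefSeq), and the brightest tested probe set stands for a gene. The arrays' number limits the precision. No 2 arrays held identical values. No batch is given in the sources used here.

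All members with all their probe sets are named. From each of 7 lists, up to 4 called and up to 2 uncalled genes per IR comparison with the largest change were named, and the 2 nearest genes of each member. Members and lists were chosen with earlier results of these data known. Alternatives covered the pseudocount, filter, scaling, trend, array weights, arrays fitted, probe sets averaged, sham day and arrays left out.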

Additional observations from a re-analysis of the deposited data

Results flagged for a closer look

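Dcn (difference of the log2 IR effects, 7 d minus 2 d, 0.32) and Ogn (0.774) stand out because every 2 d IR array lay below the mean of the 2 d sham rats and every 7 d IR array above that of the 7 d sham rats. The difference itself was tested with limma and did not pass for either (adjusted p = 0.642 for Dcn and 0.507 for Ogn). The pattern was sought among the members only, so its share over all genes is not known. For Dcn, 2 d IR replicate 73 lay at -0.0223 from the sham mean, within the -0.0384 to 0.0742 of the 2 d sham arrays. With quantile normalization the 2 d change of Dcn was -0.015. Prelp (0.84) and Eln (0.86) had larger differences without this pattern.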

How the results depend on the processing

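Of 1500 results under alternatives, 1344 kept their direction and their side of the threshold, 88 lost a call, 37 gained one and 31 changed sign. The 1500 include results that were not called with all arrays and so could not lose a call. They also include changes that stayed identical because the array left out was in neither group compared. These totals therefore do not measure how firm the calls were, which is given gene by gene above. The count of members called at 2 d (1) was 0 with no filter, 0 with no intensity trend, 0 against the sham rats of the other day and 3 with the 6 arrays compared alone, and 0 to 3 leaving out 1 array. The 7 d count (4) was 6 with quantile normalization, where Dcn and Fn1 were also called, beside 12.5% of all genes called in either direction. It was 8 against the sham rats of the other day. Without 2 d IR replicate 69 and 7 d sham replicate 82 together it was 2. Leaving out 1 array gave 2 to 5. The count between IR groups (6) was 3 with no filter, 4 with no intensity trend, 5 with median centring and 7 with array weights. It was 2 to 7 leaving out 1 array. The count between sham groups (0) was 2 with array weights, 4 without replicates 69 and 82 together, and 0 to 4 leaving out 1 array. The count for the difference of effects (0) was 0 to 0 leaving out 1 array. Leaving out 1 array also moved the share of all genes called in either direction. That share ran from 0.0259% to 5.19% at 2 d (2.62% with all arrays) and from 1.85% to 14.9% at 7 d (13%). Between IR groups it ran from 2.01% to 4.51% (3.76%). The counts of members and of the lists in fits that left out 1 array stand beside these shares. Median centring moved the share of higher calls over all probe sets at 2 d from 76.2% to 64.1%. The cause was not tested for any of these.

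Against the sham rats of the other day, these 2 d changes turned negative: Bgn -0.27, Lum -0.45, Fn1 -0.14, Eln -0.56, Fmod -0.10 and Ogn 1390450_a_at -0.31. Bgn's difference of effects was 0.0089, 0.046 and 0.078 with median centring, quantile normalization and array weights. Fmod at 2 d was -0.018 and -0.033 with the first and second of these, Prelp -0.020, -0.018 and -0.044 with all of them, and Ogn 1390450_a_at -0.00024 and -0.011 with pseudocounts 50 and 1 and -0.040 and -0.026 with centring and quantile normalization. Ogn between sham groups was 0.0053 with probe sets averaged. Leaving out 1 array, the difference for Bgn ran from -0.26 to 0.20, Prelp at 2 d from -0.063 to 0.14, Ogn 1390450_a_at at 2 d from -0.25 to 0.28, Vcan 1388054_a_at between IR groups (0.33 with all arrays) from -0.19 (without 7 d IR replicate 44) to 0.74, Fmod between sham groups from -0.081 to 0.27 and Ogn from -0.18 to 0.023. With 3 arrays a group, a change must be large against the spread to pass. No paired analysis was possible because the groups share no replicate numbers.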
